A study of Mus musculus with 6 samples.

Results

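The 44 genes described here encode the proteins that drive and carry out mitosis: cyclins and Cdk1, the spindle checkpoint, the kinetochore, the spindle with its motors, and the machinery of cytokinesis. They were chosen by gene symbol, with earlier results of these data known. All 44 are present among the 17525 genes of the deposited table. All 44 also passed the filter on low counts, which left 15954 genes for testing. Cardiac fibroblasts were isolated from C57BL/6 mice at 6 weeks of age and used in culture without passaging. The Sipa1 knockdown group (3 samples) received a lentivirus coding for a short hairpin RNA against Sipa1 together with an EGFP reporter, and the scramble group (3 samples) received a scramble lentivirus. Both groups were given lipopolysaccharide (LPS), a bacterial product that activates Toll-like receptor 4, at 1 µg/ml for 24 h, starting 72 h after the virus. All samples share batch 1, and no cells without virus or without LPS were analysed here. Whether the 3 samples of a group are independent isolations is not stated in the labels. The p-values therefore speak only of the scatter among these 6 samples, part of which may be technical.

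Most mitotic genes are silent in resting cells. As a cell goes through S phase and G2 their transcripts build up, cyclin A and cyclin B activate Cdk1, and the transcripts are lost again after division. In non-dividing cells the DREAM complex (the retinoblastoma-like proteins p107 or p130 with E2F4 and the MuvB core) represses many of these genes at a promoter element called CHR. In dividing cells MuvB joins B-Myb and Foxm1 there, and the factor NF-Y binds CCAAT boxes nearby. In a culture, the summed level of such transcripts is often read as a measure of how many cells are cycling.

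Promoter sequences are shown for 3 genes, since the elements that these genes share are visible in them. They are the genes past the threshold with the smallest adjusted p whose RefSeq promoter (GRCm38.p6) holds both a CHR match (TTTGAA) and a CCAAT match. Each runs 5′ to 3′ in the direction of the gene, from 150 bases before the annotated start to 30 bases after it, and capitals mark CHR and CCAAT matches on either strand. The stretch of Cenpf, a large kinetochore protein of G2 and mitosis, is chr1:189688057-189688236 on the minus strand. That of Spc25, a subunit of the NDC80 complex that grips microtubules, is chr2:69206184-69206363 on the minus strand. That of Cdk1, the kinase that starts mitosis, is chr10:69352883-69353062 on the minus strand.
Cenpf: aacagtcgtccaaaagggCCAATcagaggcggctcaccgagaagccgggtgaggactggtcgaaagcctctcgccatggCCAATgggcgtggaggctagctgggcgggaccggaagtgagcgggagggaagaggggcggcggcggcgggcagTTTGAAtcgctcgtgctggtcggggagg
Spc25: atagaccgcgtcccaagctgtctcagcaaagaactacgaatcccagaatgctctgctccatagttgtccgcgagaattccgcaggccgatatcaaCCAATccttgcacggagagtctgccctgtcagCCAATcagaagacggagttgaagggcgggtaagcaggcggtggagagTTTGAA
Cdk1: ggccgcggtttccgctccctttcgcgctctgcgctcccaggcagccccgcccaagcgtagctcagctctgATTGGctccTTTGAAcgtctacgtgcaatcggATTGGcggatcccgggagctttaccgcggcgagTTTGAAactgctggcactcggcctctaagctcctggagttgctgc
In Cenpf and Spc25 the CHR match lies just after the start, behind a pair of CCAAT boxes. In Cdk1 a CHR match lies on each side of the CCAAT box nearest to the start, read as ATTGG here because that box is on the other strand.

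RefSeq promoters, each 250 bases before to 50 bases after the start, were found for 36 of the 44 genes and for 11712 of the tested genes. A CHR match (TTTGAA, both strands) was present in 26 of the 36, or 72.2%, against 15.0% of all tested genes with a promoter. A CCAAT match (both strands) was present in 27, or 75.0%, against 42.8%, and both were present in 23, or 63.9%, against 6.28%. A CHR match that began no more than 50 bases before the start, or lay after it, was present in 24, or 66.7%, against 3.94% of all tested genes. A pair of CCAAT boxes on one strand, beginning 31 to 33 bases apart, was present in 7, or 19.4%, against 1.56%; this spacing was looked at after the positions were seen. An E2F match (TTTCCCGC, TTTCGCGC, TTTGCCGC or TTTGGCGC, both strands) was found in 1 mitotic promoter, or 2.78%, that of Cdk1, against 4.54% of all tested genes. In 28 genes of DNA replication in S phase, 22 with a promoter, the shares ran the other way: 18.2% held CHR and 50% held E2F letters. Matches of different elements shared bases in 1 of the 36 mitotic promoters. Both CHR and CCAAT were present in 70.0% of the 20 mitotic genes with a promoter that were called higher after knockdown. They were present in 56.2% of the 16 others, and the difference was not tested. A match is a description of the letters, and binding was not measured.

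**Figure D1:**
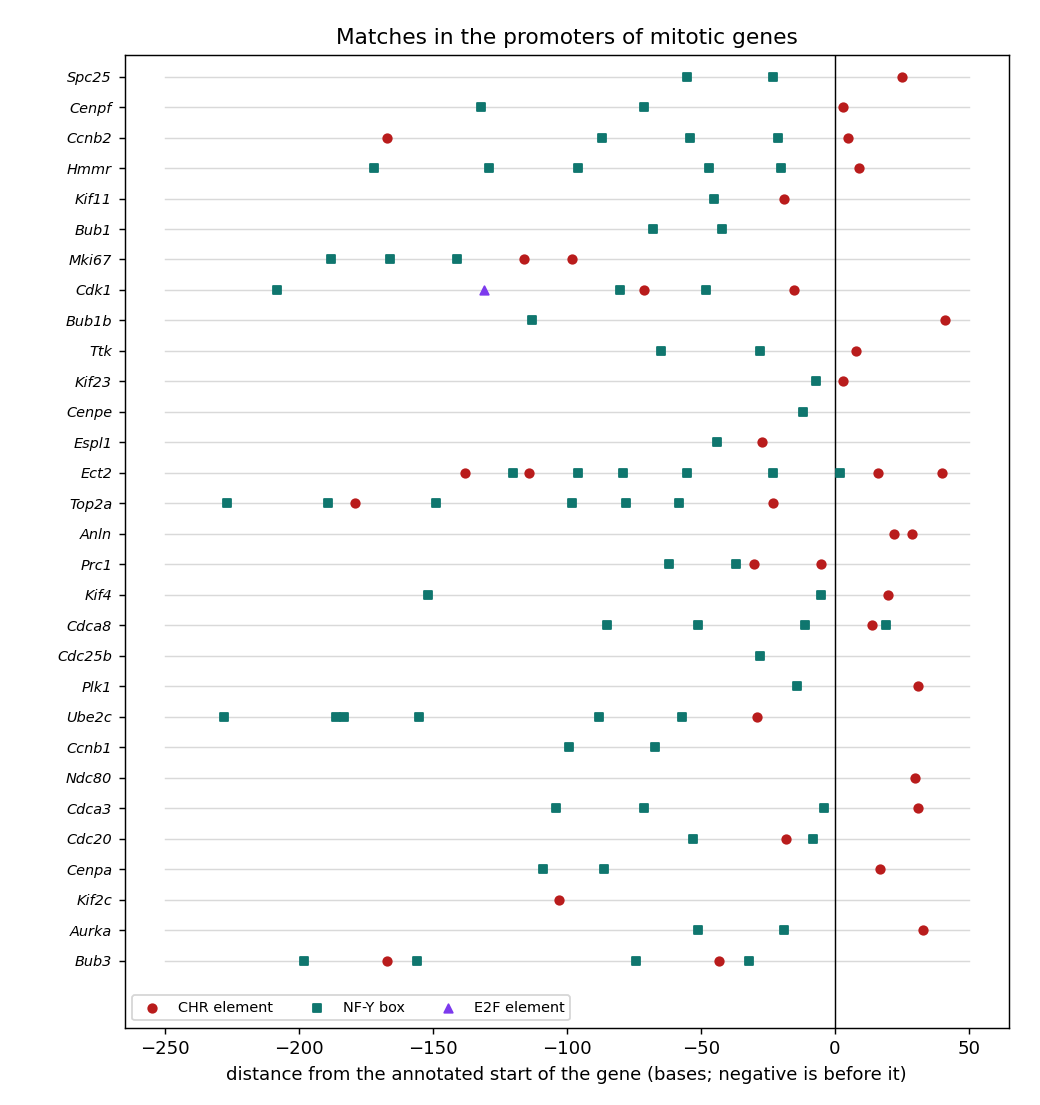
Positions of CHR, NF-Y (CCAAT) and E2F matches in the promoters of the mitotic genes with at least 1 match, 1 gene per line, ordered from the highest log2 fold change (top) to the lowest; the x axis is the distance in bases from the annotated start. CHR matches gather around the start, with NF-Y boxes mostly in the 100 bases before it. Mitotic genes whose promoter held no match are not drawn.

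The knockdown was visible in the targeted transcript. Sipa1, which encodes a GTPase-activating protein for Rap, had 17.7, 20.0 and 15.2 CPM (library size-adjusted counts, by TMM) in the knockdown libraries, against 41.0, 43.7 and 41.4 CPM in the scramble libraries, a log2 fold change of -1.25 (SE 0.075). Libraries held 30930998 to 41839742 reads in genes, and scramble replicate 2 was the shallowest. The 9 fibroblast markers were present in every library and summed to 23050 to 25270 CPM in knockdown and 23160 to 26160 CPM in scramble libraries, a sum made up mostly of the collagens Col1a1, Col1a2 and Col3a1. None of the 9 rose and 3 fell (33.3%), where 16.4% of all tested genes were called higher and 15.8% lower in the edgeR test described below. The transcription factor gene Tcf21 averaged 85.1 CPM in knockdown and 153 CPM in scramble (log2 fold change -0.84, SE 0.049), the receptor gene Pdgfra 275 CPM in knockdown and 339 CPM in scramble (-0.30, SE 0.043), and Dcn (decorin) 2427 CPM in knockdown and 2748 CPM in scramble (-0.18, SE 0.053).

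Transcripts of the mitotic genes were modestly more abundant after Sipa1 knockdown. Of the 44, 25 rose, 1 (Pttg1) fell and 18 did not pass the threshold (edgeR quasi-likelihood test, adjusted p under 0.05 over all 15954 genes). The rising share of 56.8% stands against a background of 16.4% of all tested genes called higher, and the falling share of 2.27% against 15.8% called lower (32.2% in either direction). The changes were small: the log2 fold changes ran from -0.24 to 0.47, with a median of 0.18, where the median over all tested genes was -0.001. In 28 of the 44 genes every knockdown library lay above every scramble library, which was so in 22.4% of all tested genes, and in 2 it lay below, which was so in 21.2%. The log2 fold change was positive in 40 of the 44, against 49.7% of all tested genes.

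Added over the 44 genes, the level was 2090, 2152 and 2167 CPM in the knockdown libraries, against 1932, 1813 and 1867 CPM in the scramble libraries. The groups did not overlap, and the mean was 2137 ± 40.7 CPM in knockdown and 1871 ± 59.6 CPM in scramble cells (SD, n = 3 each), a rise in the sum of 14.2%. On the deposited TPM scale, which divides by transcript length, the sum was 10.1% higher in knockdown. In bulk RNA, more cycling cells and more mitotic RNA per cycling cell cannot be told apart. Within the groups the libraries were not equal: scramble replicate 2 was the lowest of all 6 in 25 of the 44 genes, and scramble replicate 1 the highest of its group in 27. Relative to each gene's scramble mean, the median mitotic gene stood at 1.12, 1.15 and 1.18 in knockdown replicates 1, 2 and 3 and at 1.03, 0.968 and 1.00 in scramble replicates 1, 2 and 3. Without scramble replicate 2 the count of rising genes was 19 and the median log2 fold change 0.16. The counts without scramble replicate 3 and without knockdown replicate 2 were 19 each, without knockdown replicate 3 it was 20, without knockdown replicate 1 it was 23, and without scramble replicate 1 it was 24.

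**Figure D2:**
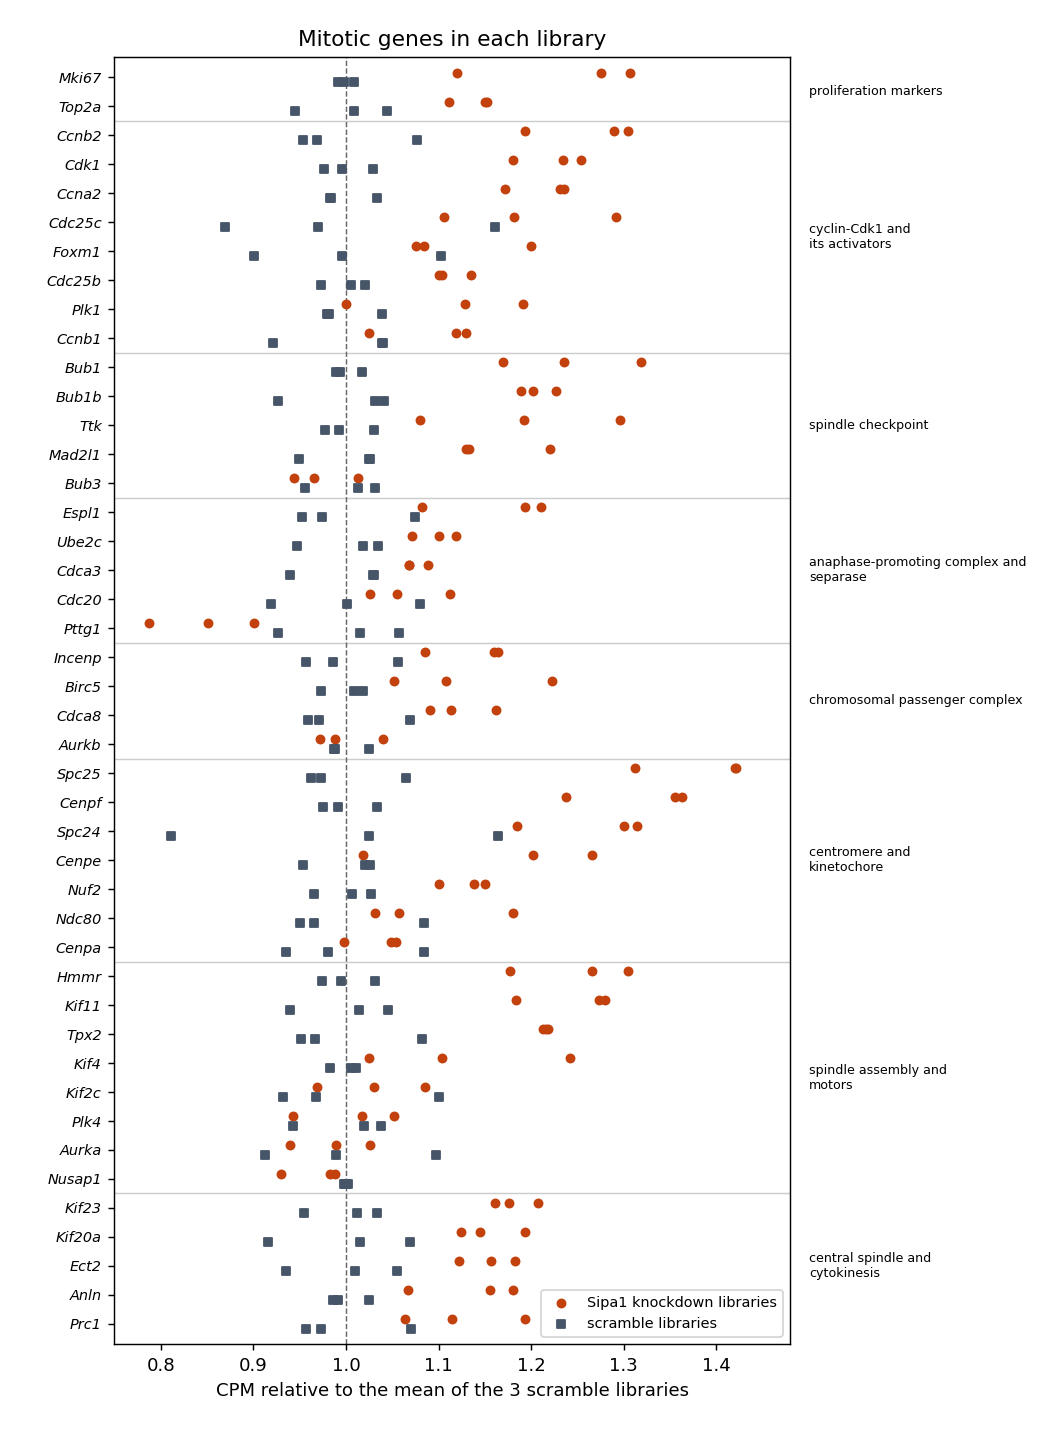
CPM of each of the 44 genes in each library, divided by the gene's mean over the 3 scramble libraries (x axis), with genes grouped by role; circles are the 3 Sipa1 knockdown libraries and squares the 3 scramble libraries. In 28 genes all circles lie to the right of all squares, as in 22.4% of all tested genes. Pttg1 and Nusap1 are the 2 in which all lie to the left, as in 21.2% of all tested genes.

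The markers most used to count dividing cells rose. Mki67, the source of the Ki-67 antigen that coats mitotic chromosomes, had 145.2, 165.4 and 169.5 CPM in knockdown libraries, against 130.9, 128.6 and 129.5 CPM in scramble libraries. Top2a, the topoisomerase that untangles sister chromatids, had 161, 167 and 167 CPM in knockdown, against 146, 137 and 151 CPM in scramble. For both genes the groups did not overlap, with knockdown replicate 1 the lowest of its group. In 22.4% of all tested genes knockdown likewise lay wholly above scramble. The log2 fold changes were 0.30 for Mki67 (SE 0.050, edgeR adjusted p = 5.10e-05) and 0.19 for Top2a (SE 0.044, edgeR adjusted p = 0.00232).

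Among cyclin-Cdk1 and its activators 3 of 8 rose (37.5%), where 16.4% of all tested genes were called higher. They were Cdk1, its S and G2 partner Ccna2 (cyclin A2) and its mitotic partner Ccnb2 (cyclin B2). Cdk1 had 89.3, 90.7 and 85.4 CPM in knockdown libraries, against 74.4, 72.0 and 70.6 CPM in scramble libraries, a log2 fold change of 0.29 (SE 0.046, edgeR adjusted p = 3.06e-05). Ccna2 had 56.4, 56.6 and 53.7 CPM in knockdown, against 47.3, 45.1 and 45.0 CPM in scramble, and Ccnb2 had 34.3, 34.7 and 31.7 CPM in knockdown, against 28.6, 25.7 and 25.4 CPM in scramble. Their log2 fold changes were 0.28 (SE 0.050) and 0.34 (SE 0.063). In all 3 genes knockdown lay wholly above scramble, as it did in 22.4% of all tested genes.

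Ccnb1 (cyclin B1), the other mitotic cyclin, had 60.2, 59.6 and 54.6 CPM in knockdown libraries, against 55.4, 49.1 and 55.5 CPM in scramble libraries. These groups overlapped, and the log2 fold change of 0.12 (SE 0.056, edgeR adjusted p = 0.0974) did not pass. A processed copy, Ccnb1-ps, had only 29 to 40 reads in knockdown and 29 to 43 reads in scramble libraries. Plk1, the kinase that promotes mitotic entry and spindle assembly, stood at 0.15 (SE 0.058, edgeR adjusted p = 0.0585), and Foxm1, the transcription factor of G2 and mitosis genes, at 0.16 (SE 0.066, edgeR adjusted p = 0.0628). The phosphatases Cdc25b and Cdc25c, which remove the inhibitory phosphates from Cdk1, stood at 0.16 (SE 0.066) and 0.26 (SE 0.12) without passing. Of these, Ccnb1 and Plk1 passed without knockdown replicate 3 (edgeR adjusted p = 0.0478 and 0.00799), Foxm1 without scramble replicate 1 (0.0107) and Cdc25c without scramble replicate 2 (0.0237).

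The spindle checkpoint holds anaphase back until every kinetochore is attached. Of its 5 genes 4 rose (80%), where 16.4% of all tested genes were called higher. The kinase Bub1 had 34.9, 36.9 and 39.3 CPM in knockdown libraries, against 30.4, 29.5 and 29.6 CPM in scramble libraries, a log2 fold change of 0.31 (SE 0.059, edgeR adjusted p = 2.32e-04). Bub1b (BubR1), part of the complex that inhibits the anaphase-promoting complex, had 41.96, 42.5 and 43.3 CPM in knockdown, against 36.4, 36.8 and 32.7 CPM in scramble, a log2 fold change of 0.27 (SE 0.057). Mad2l1 (Mad2), which captures Cdc20, rose by 0.21 (SE 0.059) and Ttk (Mps1), the kinase at the top of the checkpoint, by 0.25 (SE 0.083) on the log2 scale. In all 4 the groups did not overlap, with knockdown wholly above scramble, as in 22.4% of all tested genes. Bub3, the adaptor that carries Bub1 and BubR1, was the exception, with 87.2, 83.2 and 81.3 CPM in knockdown, against 88.8, 82.4 and 87.2 CPM in scramble (log2 fold change -0.04, SE 0.047, edgeR adjusted p = 0.581). The call of Mad2l1 was lost without knockdown replicate 3 (edgeR adjusted p = 0.0520), and that of Ttk without scramble replicate 2 (0.0515) or 3 (0.0804) or knockdown replicate 2 (0.153) or 3 (0.0564).

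Genes of the step that the checkpoint controls moved differently from one another. The anaphase-promoting complex (APC/C), a ubiquitin ligase, is switched on by Cdc20, works with the conjugating enzyme Ube2c, and destroys securin (Pttg1), which frees separase (Espl1) to cut cohesin. Espl1 rose, with 27.2, 29.97 and 30.4 CPM in knockdown libraries, against 27.0, 24.4 and 23.9 CPM in scramble libraries, a log2 fold change of 0.22 (SE 0.066, edgeR adjusted p = 0.0146). Its inhibitor Pttg1 fell, with 12.8, 13.9 and 14.7 CPM in knockdown, against 17.2, 15.1 and 16.5 CPM in scramble, a log2 fold change of -0.24 (SE 0.080, edgeR adjusted p = 0.0236). On the CPM scale the groups did not overlap in either gene. Knockdown lay wholly above scramble in 22.4% of all tested genes and wholly below in 21.2%. The gap for Espl1 was narrow, 27.16 CPM in knockdown replicate 1 against 26.97 CPM in scramble replicate 1. On the TPM scale both genes overlapped. Espl1 had 8.92 TPM in knockdown replicate 1 and 9.02 TPM in scramble replicate 1. Pttg1 had 41.65 TPM in knockdown replicate 3 and 41.27 TPM in scramble replicate 2.

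Neither of these calls held in every subset of libraries. The Pttg1 call was lost without scramble replicate 1 (edgeR adjusted p = 0.119) or 3 (0.0736) or knockdown replicate 1 (0.0968), and that of Espl1 without scramble replicate 3 (0.0834) or knockdown replicate 2 (0.0723) or 3 (0.0715). Cdc20 stood at 0.09 (SE 0.057, edgeR adjusted p = 0.264), Ube2c at 0.13 (SE 0.053, edgeR adjusted p = 0.0614) and Cdca3, a trigger of mitotic entry and itself a target of APC/C, at 0.10 (SE 0.060, edgeR adjusted p = 0.209). In Ube2c and Cdca3 every knockdown library lay above the scramble range, as in 22.4% of all tested genes.

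The chromosomal passenger complex corrects faulty attachments and joins the kinase Aurora B (Aurkb) to survivin (Birc5), borealin (Cdca8) and the scaffold Incenp. Incenp rose, with 53.6, 53.8 and 50.2 CPM in knockdown libraries, against 48.8, 44.2 and 45.6 CPM in scramble libraries (log2 fold change 0.18, SE 0.053, edgeR adjusted p = 0.0101). Birc5 rose by 0.17 on the log2 scale (SE 0.064, edgeR adjusted p = 0.0438), and Cdca8 stood at 0.17 (SE 0.067, edgeR adjusted p = 0.0616). The kinase itself did not move with its partners: Aurkb had 23.5, 24.7 and 23.1 CPM in knockdown, against 23.5, 24.4 and 23.5 CPM in scramble, a log2 fold change of 0.00 (SE 0.063, edgeR adjusted p = 0.992). The difference between Aurkb and its partners was not tested. The Incenp call was lost without scramble replicate 2 (edgeR adjusted p = 0.0510) or knockdown replicate 2 (0.0554). The Birc5 call was lost without any 1 of 5 libraries, with edgeR adjusted p values of 0.0546 (without knockdown replicate 1), 0.262 (without knockdown replicate 3), 0.0922, 0.116 and 0.0736 (without scramble replicates 1, 2 and 3), while Cdca8 passed without scramble replicate 1 (0.0369).

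The steepest rises were at the kinetochore, where 5 of 7 genes rose (71.4%, against 16.4% of all tested genes). Spc25 had 20.9, 19.3 and 20.9 CPM in knockdown libraries, against 14.3, 14.2 and 15.7 CPM in scramble libraries, a log2 fold change of 0.47 (SE 0.073, edgeR adjusted p = 2.97e-05). Cenpf had 45.2, 49.5 and 49.8 CPM in knockdown, against 35.6, 36.2 and 37.7 CPM in scramble, a log2 fold change of 0.40 (SE 0.055, edgeR adjusted p = 5.47e-06). These were the highest values among the 44 genes, 38.2% and 31.9% above scramble. Their groups lay well apart, and in 22.4% of all tested genes knockdown lay wholly above scramble. Cenpe, a motor that moves chromosomes towards the spindle equator, rose by 0.22 on the log2 scale (SE 0.064, edgeR adjusted p = 0.0128), although its groups overlapped. Cenpa, the histone H3 variant that marks the centromere, stood at 0.04 (SE 0.066, edgeR adjusted p = 0.661).

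The NDC80 complex has 4 subunits, which are present in equal numbers in the complex. Per length, Spc25 had 33.2, 30.4 and 32.8 TPM in knockdown libraries, against 22.3, 23.5 and 24.6 TPM in scramble libraries. Nuf2 averaged 24.7 TPM in knockdown and 22.01 TPM in scramble, Ndc80 19.1 TPM in knockdown and 17.7 TPM in scramble, and Spc24 12.6 TPM in knockdown and 10.1 TPM in scramble. Spc25 was the most abundant of the 4 transcripts and Spc24 the least in all 6 libraries. Nuf2 rose by 0.18 on the log2 CPM scale (SE 0.061, edgeR adjusted p = 0.0321) and Spc24 by 0.33 (SE 0.12, edgeR adjusted p = 0.0441), while Ndc80 stood at 0.12 (SE 0.078, edgeR adjusted p = 0.255). The Spc25 and Cenpf calls held without any single library. The Cenpe call was lost without scramble replicate 1 (edgeR adjusted p = 0.0668) or knockdown replicate 2 (0.0824) or 3 (0.0962). The Nuf2 call was lost without scramble replicate 1 (0.0530), 2 (0.104) or 3 (0.0725) or knockdown replicate 1 (0.0623) or 2 (0.102), and that of Spc24 without scramble replicate 2 (0.223) or 3 (0.0829) or knockdown replicate 1 (0.106), 2 (0.0558) or 3 (0.120), by the same test.

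Among genes of spindle assembly, 3 of 8 rose (37.5%, against 16.4% of all tested genes) and 5 did not pass. Tpx2, which activates Aurora A and nucleates microtubules around chromosomes, had 100.1, 99.9 and 99.6 CPM in knockdown libraries, against 89.0, 78.2 and 79.4 CPM in scramble libraries (log2 fold change 0.28, SE 0.049, edgeR adjusted p = 1.08e-04). Kif11 (Eg5), the motor that pushes the spindle poles apart, had 43.7, 47.3 and 47.0 CPM in knockdown, against 38.6, 34.7 and 37.5 CPM in scramble (log2 fold change 0.32, SE 0.056, edgeR adjusted p = 1.36e-04). Hmmr, a microtubule-binding protein that is also a hyaluronan receptor, had 57.8, 62.2 and 64.1 CPM in knockdown, against 50.7, 47.8 and 48.9 CPM in scramble (log2 fold change 0.32, SE 0.052, edgeR adjusted p = 4.01e-05). In these 3 genes knockdown lay wholly above scramble, as in 22.4% of all tested genes, and the calls held without any single library.

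The kinase Aurka, which Tpx2 activates, had 30.2, 28.7 and 31.4 CPM in knockdown libraries, against 30.2, 33.5 and 27.9 CPM in scramble libraries (log2 fold change -0.02, SE 0.067, edgeR adjusted p = 0.866). Plk4, the kinase of centriole duplication, stood at 0.00 (SE 0.068), Kif2c (MCAK), which takes microtubules apart at centromeres, at 0.04 (SE 0.066), and Nusap1, which bundles spindle microtubules, at -0.05 (SE 0.061). These 4 genes had edgeR adjusted p values of 0.601 or more. Kif4, a chromosome-bound motor, stood at 0.17 (SE 0.067, edgeR adjusted p = 0.0593), above the scramble range in every knockdown library, and passed without knockdown replicate 1 (0.0121).

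All 5 genes of the central spindle and cytokinesis rose, where 16.4% of all tested genes were called higher. Their rises were 0.17 to 0.24 on the log2 scale. Kif23 (MKLP1), the motor of the centralspindlin complex, had 33.8, 33.4 and 34.7 CPM in knockdown libraries, against 29.1, 27.4 and 29.7 CPM in scramble libraries (log2 fold change 0.24, SE 0.057, edgeR adjusted p = 0.00252). Anln (anillin), which links the contractile ring to the membrane, had 122, 132 and 135 CPM in knockdown, against 117, 113 and 114 CPM in scramble (log2 fold change 0.18, SE 0.045, edgeR adjusted p = 0.00350). Ect2, the exchange factor that activates RhoA at the cleavage site, rose by 0.20 (SE 0.059, edgeR adjusted p = 0.0100), and Kif20a (MKLP2), the motor that brings the passenger complex to the midzone, by 0.21 (SE 0.052, edgeR adjusted p = 0.00408). Prc1, which crosslinks midzone microtubules, rose by 0.17 (SE 0.052, edgeR adjusted p = 0.0165), with overlapping groups.

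The annotated span of Prc1 overlaps that of Rccd1 over 99.3% of its length and that of Kif20a overlaps Cdc23 over 57.0%, and the strand setting of the counting is not stated, so reads of such neighbours cannot be told apart. In all, 15 of the 44 genes overlap another annotated gene, 8 of them a protein-coding one, and Kif4 shares 62% of its span with a long noncoding RNA gene, Gm52438. The call of Ect2 was lost without scramble replicate 2 (edgeR adjusted p = 0.0598), and that of Prc1 without scramble replicate 2 (0.0738) or 3 (0.0811) or knockdown replicate 3 (0.125).

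**Figure D3:**
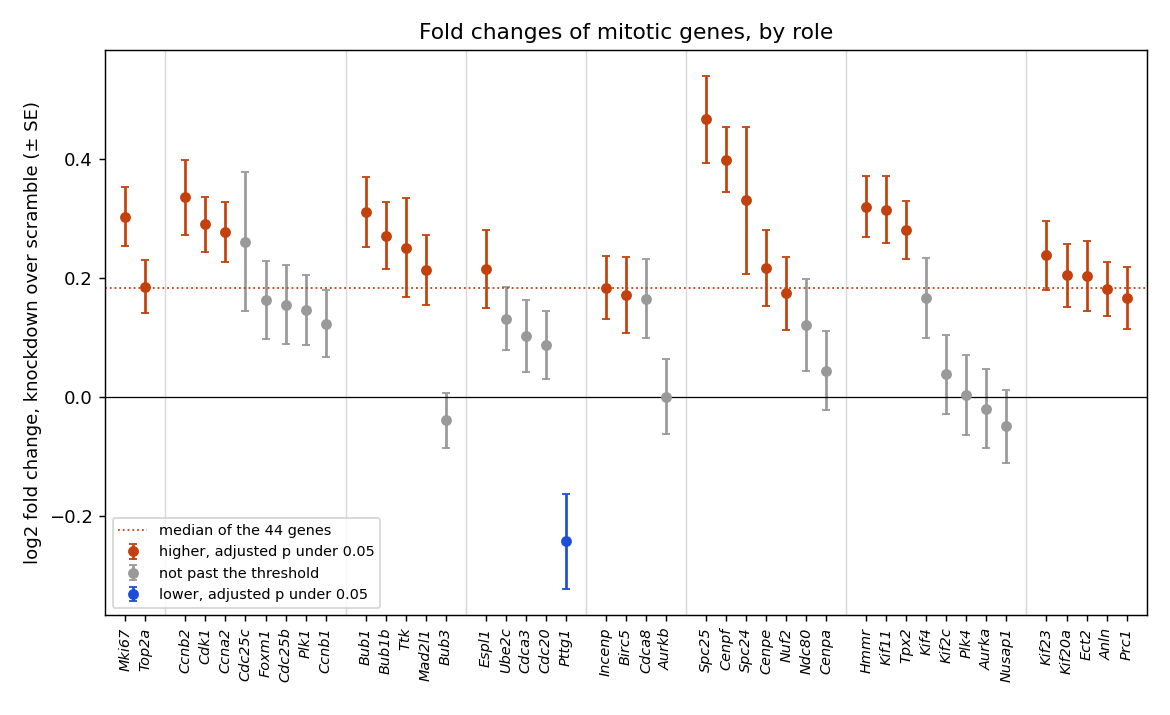
Log2 fold change of CPM, knockdown over scramble, for the 44 genes grouped by role (points) with edgeR standard errors (bars); colour gives the call at an adjusted p under 0.05 over all tested genes, and the dotted line is the median of the 44 genes, 0.18. Spc25 and Cenpf reach 0.47 and 0.40, all 5 cytokinesis genes lie between 0.17 and 0.24, and Pttg1 alone is called lower.

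The genes differed more in level than in change. On the TPM scale, means in knockdown and scramble cells were 9.91 and 7.62 TPM for Cenpf, the lowest in scramble, and 112.5 and 103.9 TPM for Ube2c, the highest. Across the 44 genes, the mean CPM and the log2 fold change had a Spearman rho of 0.16, given as a description of genes that share the same 6 libraries. The spread within groups was small: the median coefficient of variation of the 44 genes was 4.48% in knockdown and 5.05% in scramble libraries. The 5387 tested genes between 17.6 and 84.9 CPM had 4.43% and 4.07%. That band leaves out the lowest and highest levels among the 44 genes. In the authors' deposited table, higher calls covered 22 of the 44 genes and lower calls 1 at an adjusted p under 0.05, where 15.3% of all genes with an adjusted p in that table were higher and 15.1% lower, and all 22 were among the 25 that rose in the edgeR test.

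Other genes of mitosis and the cell cycle, 146 in 9 lists, were read beside these. In all, 61 rose and 15 fell, or 41.8% and 10.3%, against 16.4% and 15.8% of all tested genes. The S-phase replication list moved most evenly: 24 of 28 rose and 0 fell, with a median log2 fold change of 0.32 (the 4 others did not pass). The nucleotide salvage kinase Tk1 had 22.5, 22.2 and 23.3 CPM in knockdown libraries, against 15.3, 13.3 and 14.9 CPM in scramble libraries (log2 fold change 0.64, SE 0.073, edgeR adjusted p = 3.33e-07). Lig1, the ligase that joins Okazaki fragments, rose by 0.49 (SE 0.061, edgeR adjusted p = 1.15e-06). Whether the replication genes rose more than the mitotic genes was not tested.

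Condensin, which compacts mitotic chromosomes, had 6 rising (75%) and 0 falling genes of 8 with a median of 0.19, where 16.4% and 15.8% of all tested genes rose and fell. Among the rising genes were Ncapg2 at 0.28 (SE 0.054) and Smc4 at 0.21 (SE 0.050). The calls of Ncapg2, Smc4 and Ncaph held without any single library, while those of Smc2 and Ncapg were lost in 4 of the 6 subsets with 1 library left out and that of Ncaph2 in 2, with edgeR adjusted p values of up to 0.179, 0.137 and 0.0854. Of 25 other mitotic motors and spindle proteins 9 rose (36%) and 1 fell (4%) with a median of 0.16. Among the rising was the spindle pole protein Aspm at 0.27 (SE 0.064, edgeR adjusted p = 0.00237), a call that held without any single library. The falling call, Cit, was lost in 5 of the 6 subsets with 1 library left out, and some other rising calls in up to 4. Of 23 genes of the KNL1 and MIS12 complexes and the inner centromere 8 rose (34.8%) and 2 fell (8.7%) with a median of 0.17. Some of these rising calls were lost in up to 5 of the 6 subsets, while those of Cenpn and Zwint held without any single library. Cenpn, which reads the centromeric nucleosome, rose by 0.51 (SE 0.11, edgeR adjusted p = 0.00104), while the outer kinetochore protein Zwint fell, with 143, 141 and 146 CPM in knockdown libraries, against 176, 179 and 171 CPM in scramble libraries (log2 fold change -0.29, SE 0.041, edgeR adjusted p = 8.95e-06).

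Of 12 genes of cohesin, the ring that holds sister chromatids, 2 rose (Rad21 at 0.19, SE 0.045, and Pds5a at 0.15, SE 0.047) and 0 fell, and the rising share of 16.7% is near the 16.4% of all tested genes. Pds5a was called at an edgeR adjusted p of 0.0154, a call that was lost in 4 of the 6 subsets with 1 library left out, where the p values reached 0.112. Of 17 subunits and partners of APC/C 4 rose and 4 fell, or 23.5% each against 16.4% and 15.8% of all tested genes. The median was 0.04. The called genes included Anapc7 at 0.28 (SE 0.051, edgeR adjusted p = 1.24e-04) and the catalytic subunit gene Anapc11 at -0.46 (SE 0.068, edgeR adjusted p = 1.34e-05). Some of the other calls were lost in up to 4 of the 6 subsets.

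Regulators upstream of S phase split. Of 8 G1 cyclins and kinases 3 rose and 3 fell, or 37.5% each, against 16.4% and 15.8% of all tested genes. Ccnd3 (cyclin D3) had 147, 134 and 152 CPM in knockdown libraries, against 85.1, 77.8 and 88.9 CPM in scramble libraries (log2 fold change 0.78, SE 0.053, edgeR adjusted p = 1.44e-10). Ccne2 (cyclin E2) rose by 0.47 (SE 0.080) and Cdk2 by 0.24 (SE 0.058), while Ccnd1 and Ccnd2 fell by 0.18 (SE 0.044) and 0.19 (SE 0.044) and Cdk4 fell by 0.28 (SE 0.041) on the log2 scale. Of 7 CDK inhibitors 4 fell and 1 rose, or 57.1% and 14.3%, against 15.8% lower and 16.4% higher among all tested genes. Cdkn2b (p15), which blocks Cdk4 and Cdk6, had 18.2, 18.5 and 17.3 CPM in knockdown, against 26.2, 25.2 and 25.5 CPM in scramble (log2 fold change -0.51, SE 0.065, edgeR adjusted p = 1.85e-06). Cdkn1c (p57) fell by 1.91 on the log2 scale (SE 0.29) at low levels, 0.369 CPM in knockdown and 1.39 CPM in scramble, and Cdkn1a (p21), with means of 351 CPM in knockdown and 327 CPM in scramble, stood at 0.10 (SE 0.040, edgeR adjusted p = 0.0592).

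The other 3 calls among the inhibitors were lost in some subsets with 1 library left out: Cdkn1b in 5 of 6, Cdkn2a in 4 and the rising Cdkn2c in 2, with edgeR adjusted p values of up to 0.158, 0.211 and 0.0744. Of 18 genes of the DREAM complex, the retinoblastoma family and the E2F factors 4 rose and 1 fell with a median of 0.09. The rising share of 22.2% is near the 16.4% of all tested genes, and the falling share of 5.56% is under their 15.8%. Some of the 4 rising calls were lost with 1 library left out, in up to 4 of the 6 subsets. E2f5 rose by 0.49 (SE 0.080) and E2f8 by 0.45 (SE 0.087), and Rb1, the retinoblastoma gene, had 18.3, 19.5 and 17.5 CPM in knockdown, against 23.2, 24.2 and 22.1 CPM in scramble (log2 fold change -0.33, SE 0.069, edgeR adjusted p = 7.86e-04).

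**Figure D4:**
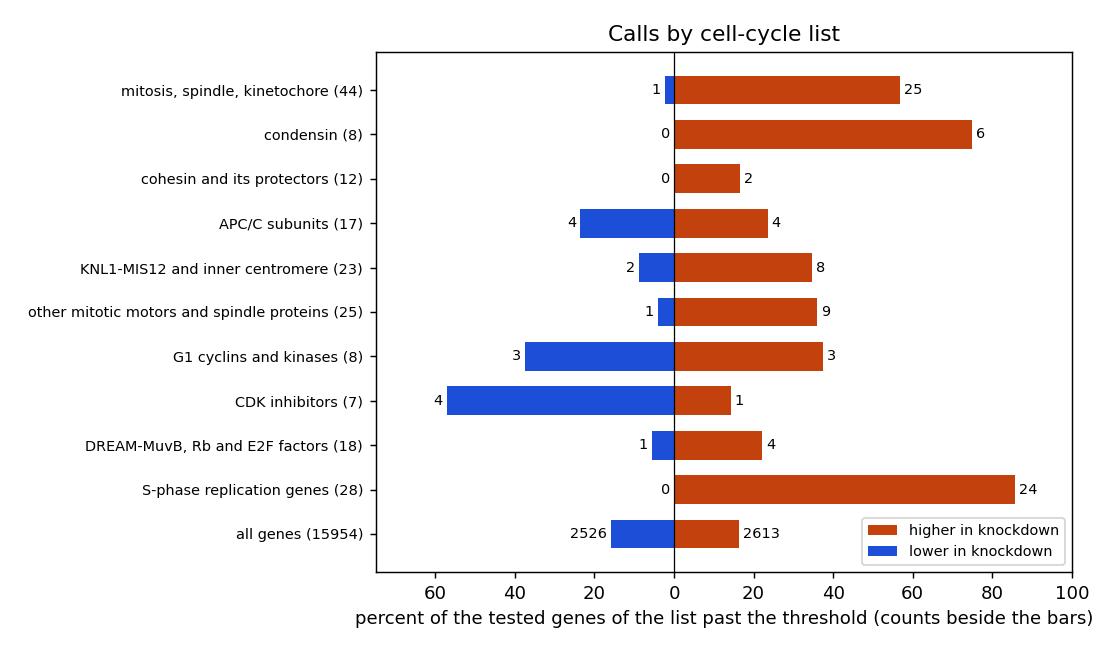
Percent of the tested genes in each list called higher (right) or lower (left) after knockdown at an edgeR adjusted p under 0.05, with the number of genes tested in brackets and the counts beside the bars. The 44 mitotic genes (25 higher, 1 lower), condensin (6, 0) and S-phase replication (24, 0) lie far to the right of all genes (2613, 2526), and CDK inhibitors (1, 4) to the left.

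Some markers of other cell types passed the threshold too, where 16.4% of all tested genes were called higher and 15.8% lower. Of 6 mesothelial markers 4 rose (66.7%) and 0 fell, with summed levels of 209 to 221 CPM in knockdown and 92.2 to 99.1 CPM in scramble libraries. Lrrn4 alone made up most of that sum, with means of 146 CPM in knockdown and 54.2 CPM in scramble. Of 8 macrophage and leukocyte markers 1 rose (12.5%, under the share of all tested genes), Csf1r, and the sum was 152 to 157 CPM in knockdown and 131 to 146 CPM in scramble libraries. Of 6 tested smooth muscle and pericyte markers 2 fell (33.3%) and 0 rose. Their sums were 53.1 to 58.9 CPM in knockdown and 77.7 to 82.6 CPM in scramble libraries. Cspg4 was the largest part of these sums, with means of 23.5 CPM in knockdown and 43.3 CPM in scramble. The 8 endothelial markers, of which 2 rose (25%) and 1 fell (12.5%), summed to 197 to 207 CPM in knockdown and 191 to 210 CPM in scramble libraries, which overlap. Of 8 cardiomyocyte markers Tnnt2 and Ryr2 were tested, with sums of 24.9 to 32.1 CPM in knockdown and 20.3 to 21.8 CPM in scramble libraries. Nearly all of that was Tnnt2, higher after knockdown, with means of 27.6 CPM in knockdown and 20.4 CPM in scramble. Ryr2 averaged 0.538 CPM in knockdown and 0.549 CPM in scramble. Myh6 was below the filter, and Ttn, Actc1, Myl2, Nppa and Pln were not analysed here. The table lists no gene at 0, so no marker in it is at 0. Their part in the mitotic result was not tested.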

How the data were processed

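Poly(A) RNA of 3 Sipa1 knockdown and 3 scramble samples was sequenced from stranded libraries, per the labels' protocols; the submitters' processing notes list HISAT2, StringTie and the mm10 build. The 6 deposited files hold 1 table. It holds raw read counts per gene, per the file headers, and the authors also deposited FPKM and TPM values, and adjusted p-values and a signed fold score of their own comparison (tool not stated). A further 6 per-sample columns of normalized values were not used. Samples were grouped by title.

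Under R 4.3.3, edgeR 4.0.16 tested the counts after its standard low-count filter and TMM scaling, with a two-sided quasi-likelihood test between groups (robust dispersions) and Benjamini-Hochberg adjustment over 15954 genes at 0.05. Fold changes are knockdown over scramble. SE was derived from the F statistic. Precision rests on 30930998 to 41839742 reads per library and on 3 libraries a group. The members and lists were chosen with earlier results of these data known. Named genes were all 44 members, Sipa1, any gene of lists of 10 or fewer, and in longer lists up to 2 called genes a direction with the smallest adjusted p. Alternatives used DESeq2 1.42.0, limma 3.58.1, other scalings and filters, the replicate block, log2(FPKM + 1), and each library left out.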

Additional observations from a re-analysis of the deposited data

How the results depend on the processing

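Over 14 alternatives the median log2 fold change of the 44 mitotic genes stayed between 0.155 and 0.214, beside a median of all genes that moved by less than 0.01, and 19 to 28 genes were called higher. With 1 library left out, the ranges were 19 to 24 genes higher and 0 to 1 lower among the 44, 0.155 to 0.214 for the median, 4152 to 4724 genes past the threshold in all (2128 to 2433 higher, 2024 to 2384 lower), and 47 to 58 higher and 11 to 15 lower in the other cell-cycle lists. The only lower call, Pttg1, was also lost with limma on log2(FPKM + 1), which called 0 of the 44 lower. Of the 25 genes that rose, 14 passed in all 14 alternatives: Mki67, Top2a, Ccna2, Ccnb2, Cdk1, Bub1, Bub1b, Kif11, Kif20a, Kif23, Cenpf, Spc25, Tpx2 and Hmmr. Same-numbered samples did not deviate together (correlations 0.0041, -0.0091 and -0.010), which cannot tell whether they were prepared as pairs. The replicate block, in which same-numbered samples share a term, called 28 higher and 1 lower, with Foxm1 (adjusted p = 0.0168), Kif4 (0.0441) and Plk1 (0.0322) passing. DESeq2 called 22 higher, without Birc5 (0.0691), Nuf2 (0.0531) and Spc24 (0.0583). With limma on log2(FPKM + 1) 20 were called, without Anln (0.115), Cenpe (0.119), Espl1 (0.103), Prc1 (0.0532), Spc24 (0.0606) and Ttk (0.0641) and with Ube2c (0.0352). Birc5 was also lost with library size only (0.0586), at least 1 CPM in 3 libraries (0.0517) and limma-voom (0.0523), and Spc24 with no filter (0.0542).

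Genes near 0 changed sign, none with a call: Aurkb stood at -0.00264 with RLE factors, -0.00381 with library size only, -0.00918 with at least 1 CPM in 3 libraries, -0.000524 with the replicate block, -0.00269 with DESeq2 and -0.000232 with log2(FPKM + 1), and Plk4 at -0.00614 with at least 1 CPM in 3 libraries. With 1 library left out, values ran between -0.0813 and 0.0476 for Aurka, -0.0372 and 0.0225 for Aurkb, -0.0018 and 0.109 for Cenpa, -0.0112 and 0.115 for Kif2c, and -0.0398 and 0.0479 for Plk4. The cause of these changes was not tested.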
